A study of Mus musculus with 4 samples.

Results

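Collagens and other matrix genes of hepatic stellate cells were followed in mouse liver, as 10 genes (Col1a1, Col1a2, Col3a1, Col4a1, Col4a2, Fn1, Sparc, Dcn, Lum and Acta2) among 8251 with a single symbol on the array. Every probe set whose only annotated symbol was 1 of these was taken, which gave 14 of 12422 probe sets after controls were left out. Whole-liver RNA came from male mice of the Hybrid B6SJL strain, 58 to 60 days old, and was hybridised to 2 arrays for PEPCK-TAg transgenic mice and 2 arrays for wild-type (WT) mice without the transgene. PEPCK-TAg mice carry the SV40 LT/st oncoproteins, named for their large T and small t antigens, on a transgene driven by the promoter of the phosphoenolpyruvate carboxykinase gene. From weaning, mice of both groups were fed for 4 weeks on a chow with 10% protein and 70% carbohydrate. The series asks how long exposure to low amounts of these viral oncoproteins alters hepatic gene expression. The labels name no individual animals, so a p-value here reflects array-to-array spread that may be only technical.

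In healthy liver most fibrillar collagen comes from stellate cells and portal fibroblasts, which surround the sinusoids and the portal tracts and make up a small share of liver cells. When stellate cells are activated they lose their vitamin A stores, take on a contractile form with smooth muscle actin, and secrete the type I and type III collagens that form scar. Type IV collagen belongs to the sheet-like matrix under endothelium and around sinusoids, and fibronectin is also secreted into plasma by hepatocytes. In whole-liver RNA, more cells of a type and more RNA in each cell cannot be told apart.

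Of these genes Col3a1, which encodes the chain of type III collagen, rose in PEPCK-TAg liver on its brightest probe set, and no other member probe set passed the threshold in either direction. Without passing the threshold, Col4a1, Lum, both probe sets of Col1a1 and 1 of 2 probe sets of Col1a2 had both PEPCK-TAg arrays above both WT arrays, and Fn1 had both below. Acta2, the smooth muscle actin of activated stellate cells, was dim on all arrays, with a higher signal in both PEPCK-TAg arrays. For most members the second PEPCK-TAg array lay well above the first, so the 2 PEPCK-TAg arrays did not give the same picture.

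Values are MAS5 signals, a brightness on a linear scale that estimates 1 transcript abundance per probe set and array, with the same trimmed mean of 250.2 on each of the 4 arrays. Changes were tested as log2(signal + 13) with limma, two-sided, over 7453 probe sets that passed a filter on mean signal, and were called at a Benjamini-Hochberg adjusted p under 0.05. Of the 14 member probe sets 12 passed the filter, and the other 2 (102990_at of Col3a1 and 93100_at of Acta2) are given as values without a test. A probe set can pass through the group in which it is brighter, so counts over the 12 are a description. Across the array 477 probe sets were higher and 229 lower in PEPCK-TAg, or 403 higher and 409 lower with each array centred on its median, which moved the median change of all tested probe sets to -0.14. The ratio of 3' to 5' actin control signal, a sign of RNA integrity, was 5.06 and 4.79 on the PEPCK-TAg arrays and 4.87 and 4.06 on the WT arrays. The same ratio for the Gapdh control was 3.36 and 2.95 on the PEPCK-TAg arrays and 3.67 and 3.80 on the WT arrays.

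Of the 12 tested member probe sets 1 was called higher, against 6.4% of all tested probe sets, and 0 were called lower, against 3.07%, where 9.47% of all tested probe sets were called in either direction. At an unadjusted p under 0.05 by limma 5 were higher and 0 lower, where 15.5% and 11% of all tested probe sets were. Both PEPCK-TAg arrays lay above both WT arrays in 6 of the 12, where 30.2% of tested probe sets did, and below both in 1, where 26.3% did. Col1a1 94305_at, counted among those 5 and those 6, passed the filter only through the PEPCK-TAg arrays. The median log2 change was 0.43 over the 12 and 0.54 over all 14 probe sets, beside 0.01 over the 7453 tested. Without PEPCK-TAg replicate 2 the median over the 14 was 0.21.

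**Figure D1:**
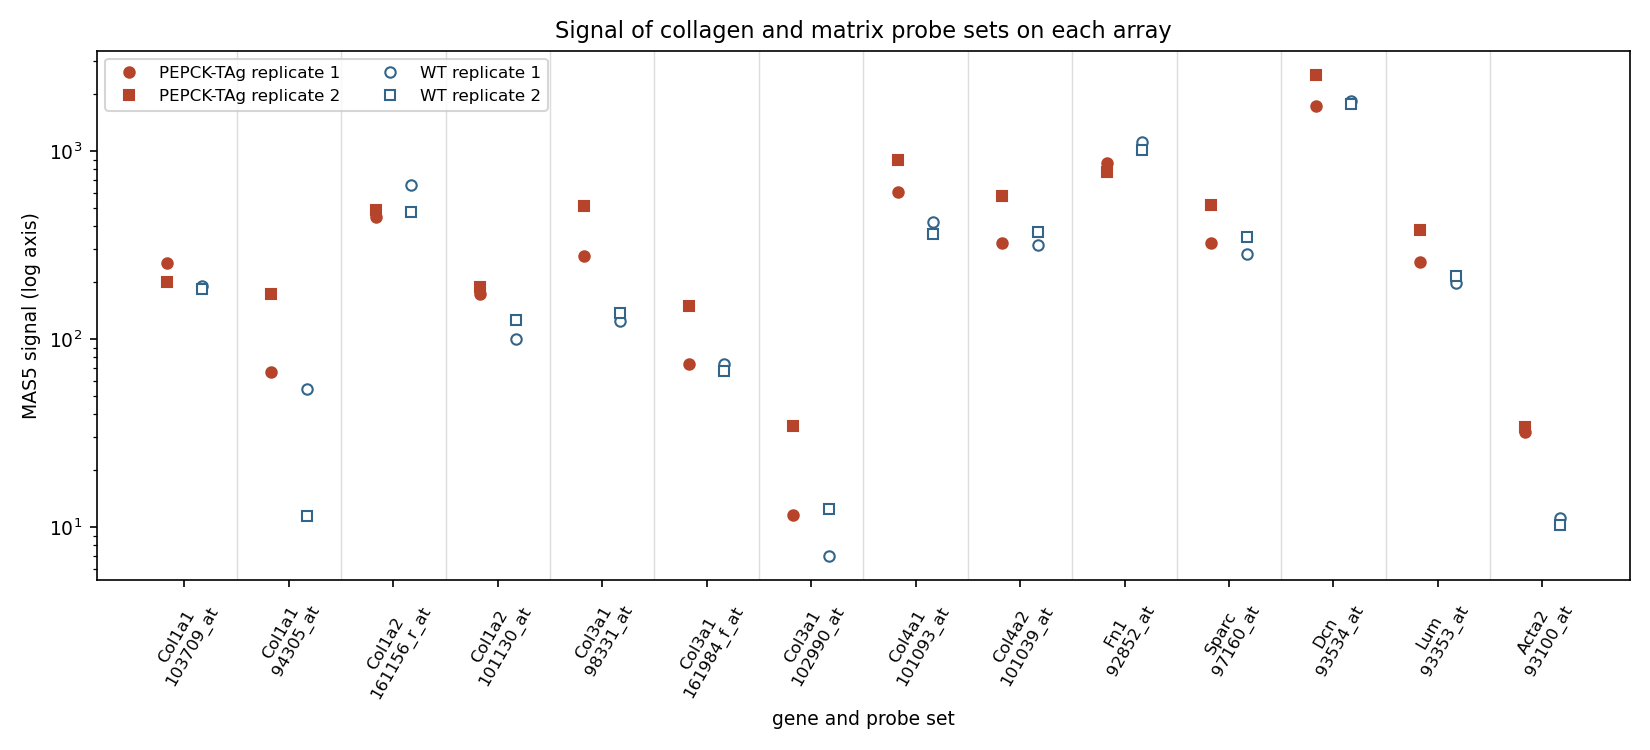
MAS5 signal (log axis) of the 14 member probe sets on each array, with the PEPCK-TAg arrays as filled red symbols to the left and the WT arrays as open blue symbols to the right. The Col3a1 probe set 98331_at had 276.9 and 511.5 on the PEPCK-TAg arrays, above both WT arrays, while most other probe sets have 1 PEPCK-TAg array near the WT values.

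The promoters of Col3a1, Col1a2 and Acta2 are shown because these genes encode the type III and type I collagen chains and the actin that mark an activated stellate cell. Their windows also differ in base composition and in the matches they hold. Each line is the 250 bases before the annotated start, 5′ to 3′ on the gene's strand, from RefSeq on GRCm38.p6: Col3a1 at chr1:45311288-45311537 on the plus strand, Col1a2 at chr6:4505368-4505617 on the plus strand and Acta2 at chr19:34255374-34255623 on the minus strand. Capitals mark matches to the TATA box spelled TATAAA, the box known as CCAAT from its letters, the motif of Sp1 spelled GGGCGG, and the CArG box, the element bound by serum response factor, in its strict form or with at most 1 G or C among its 6 inner bases, all searched on both strands.
Col3a1: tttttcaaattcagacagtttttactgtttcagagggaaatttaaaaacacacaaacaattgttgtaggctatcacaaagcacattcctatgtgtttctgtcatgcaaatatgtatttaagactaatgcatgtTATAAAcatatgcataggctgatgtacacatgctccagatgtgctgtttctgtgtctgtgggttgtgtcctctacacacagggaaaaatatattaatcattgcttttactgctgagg
Col1a2: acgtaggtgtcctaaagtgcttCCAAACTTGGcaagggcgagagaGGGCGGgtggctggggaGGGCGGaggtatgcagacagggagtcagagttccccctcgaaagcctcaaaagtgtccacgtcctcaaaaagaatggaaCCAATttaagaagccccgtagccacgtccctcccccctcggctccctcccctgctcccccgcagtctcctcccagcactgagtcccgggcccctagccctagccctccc
Acta2: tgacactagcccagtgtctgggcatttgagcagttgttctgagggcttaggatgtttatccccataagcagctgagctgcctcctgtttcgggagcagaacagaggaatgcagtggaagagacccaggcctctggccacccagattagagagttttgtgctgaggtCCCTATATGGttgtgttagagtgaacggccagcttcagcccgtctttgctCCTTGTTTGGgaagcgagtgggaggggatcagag

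The Col3a1 window was AT-rich, with 35.2% G and C, and held a single TATAAA, which 12.4% of 32851 windows of this length hold. It starts 117 bases before the annotated start and is given as a match of letters, not as a working TATA box. The Col1a2 window had 62% G and C, with a pair of GGGCGG matches (32.7% of windows hold at least 1), a CCAAT (33.8%) and a relaxed CArG match. The Acta2 window held relaxed CArG matches starting 84 and 34 bases before the start, each with 1 G or C inside. It held no strict CArG box, which 1.47% of windows hold, and 8.59% hold a strict or a relaxed match. The windows of Col4a1 and Col4a2 lie head to head on opposite strands and, at 300 bases each, overlap by 78 bases. No window was available for Col1a1, Fn1, Dcn and Lum, and those of Col4a1, Col4a2 and Sparc are not printed. These matches describe letters in a window and say nothing of binding in these livers.

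Col3a1 had 3 probe sets, of which 98331_at was called higher. On it the signal was 276.9 and 511.5 in PEPCK-TAg, against 124.1 and 137.1 in WT, with means of 394 ± 166 and 131 ± 9.19 (SD, n = 2 each). Both PEPCK-TAg arrays lay above both WT arrays, and the gap between the 2 PEPCK-TAg arrays was wider than the gap between the 2 WT arrays. The log2 change was 1.44 ± 0.29 (SE), with a 95% interval from 0.75 to 2.13 (limma, Benjamini-Hochberg adjusted p = 0.0284), and 3.13% of all tested probe sets had a larger one. Without a filter on dim probe sets the adjusted p was 0.0696. It was 0.096 without WT replicate 1, 0.0679 without WT replicate 2 and 0.0594 without PEPCK-TAg replicate 2, where the change was 1.01.

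The other Col3a1 probe sets did not pass the threshold or the filter. Probe set 161984_f_at, whose suffix marks probes that can read related transcripts, had 73.2 and 149.5 in PEPCK-TAg, against 73.3 and 67.8 in WT. Only PEPCK-TAg replicate 2 stood apart there, and the change of 0.50 had an interval from -0.29 to 1.29 (limma, adjusted p = 0.392). Probe set 102990_at, below the filter, had 11.6 and 34.6 in PEPCK-TAg, against 7.0 and 12.4 in WT, again with PEPCK-TAg replicate 2 alone above the rest.

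Type I collagen, the main collagen of scar, is a trimer of the Col1a1 and Col1a2 products, and the probe sets of each gene disagreed in size or direction. For Col1a1, probe set 103709_at had 253.5 and 202.2 in PEPCK-TAg, against 190.7 and 183.8 in WT. The arrays of the 2 groups did not overlap, yet the change of 0.26 had an interval from -0.19 to 0.70 (limma, adjusted p = 0.436). The dimmer probe set 94305_at had 66.6 and 173.8 in PEPCK-TAg, against 54.3 and 11.4 in WT. Its change of 1.59 was larger than that of Col3a1, but the arrays of each group were far apart. The interval ran from 0.19 to 2.99 (limma, adjusted p = 0.148). This probe set passed the filter only through the PEPCK-TAg arrays.

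For Col1a2, probe set 101130_at had 174.4 and 188.9 in PEPCK-TAg, against 100.1 and 126.8 in WT. The groups were apart and the arrays of each close together, with a change of 0.63 ± 0.20 (SE), an interval from 0.16 to 1.10 and an adjusted p of 0.103 by limma. Probe set 161156_r_at, whose suffix marks probes chosen under relaxed design rules, had 448.3 and 483.7 in PEPCK-TAg, against 662.3 and 476.1 in WT. Here the groups overlapped and the change was -0.26, with an interval from -0.75 to 0.22 (limma, adjusted p = 0.464). The type I collagen genes were therefore not called on any of their probe sets.

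**Figure D2:**
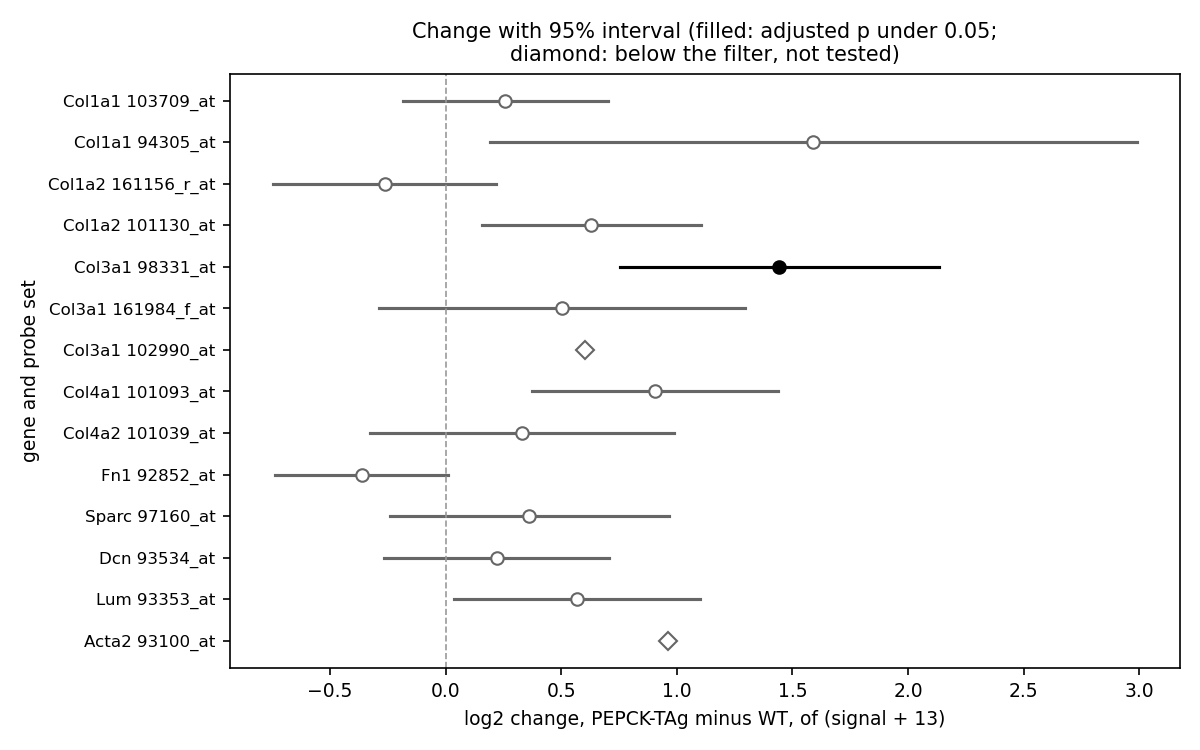
Change of each member probe set on the log2(signal + 13) scale, PEPCK-TAg minus WT, with the 95% interval from limma as a line. The filled point, Col3a1 98331_at at 1.44, was the 1 probe set called, and the diamonds mark the 2 probe sets below the filter, which were not tested.

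Type IV collagen builds basement membranes, and its Col4a1 and Col4a2 chains assemble into the same trimer. Col4a1 had 609 and 899 in PEPCK-TAg, against 418.8 and 361.2 in WT. Both PEPCK-TAg arrays were above both WT arrays, with a change of 0.91 ± 0.22 (SE), an interval from 0.37 to 1.44 and an adjusted p of 0.0538 by limma, just short of the threshold. Col4a1 was called in only 3 of 13 alternatives. Its limma adjusted p was 0.0491 with the filter at the 60th percentile and 0.0294 with the replicate block. It was 0.0909 with no filter and 0.0870 with no mean-variance trend. The change was 1.18 when the first PEPCK-TAg array was left out, and 0.63 when the second was. Col4a2 had 325.5 and 573.4 in PEPCK-TAg, against 315.7 and 369.9 in WT. PEPCK-TAg replicate 1 lay between the WT arrays, and the change of 0.33 (interval from -0.33 to 0.99, limma adjusted p = 0.508) was -0.068 without PEPCK-TAg replicate 2. The difference between the changes of these 2 neighbouring genes was not tested.

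Fibronectin (Fn1) links collagen to integrins on cells and is made by hepatocytes as well as stellate cells. Fn1 had 866.8 and 777.8 in PEPCK-TAg, against 1117.2 and 1006.7 in WT. It was the 1 member with both PEPCK-TAg arrays below both WT arrays, with a change of -0.36 ± 0.16 (SE), an interval from -0.74 to 0.01 and an adjusted p of 0.200 by limma. Of 8 tested hepatocyte genes 0 passed the limma threshold. At an unadjusted p under 0.05 by limma there were 0 higher and 3 lower, where 15.5% and 11% of all tested probe sets were. The median change was -0.30. Their summed signal was 50219 and 45427 in PEPCK-TAg, against 65849 and 57490 in WT. The part of these hepatocyte levels in the Fn1 values was not tested.

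Sparc encodes a secreted protein that binds collagen and calcium and takes part in collagen fibre assembly. Sparc had 323.2 and 518 in PEPCK-TAg, against 284.8 and 350.5 in WT, so that only PEPCK-TAg replicate 2 lay above both WT arrays. The change was 0.36, with an interval from -0.24 to 0.96 (limma, adjusted p = 0.424).

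Decorin (Dcn) and lumican (Lum) are small leucine-rich proteoglycans that coat collagen fibrils and set their width and spacing, and their genes are neighbours on the chromosome. Lum had 255.8 and 380.1 in PEPCK-TAg, against 197.4 and 215.5 in WT, with both PEPCK-TAg arrays above both WT arrays. Its change of 0.57 had an interval from 0.03 to 1.10 (limma, adjusted p = 0.167). Dcn had 1738 and 2543 in PEPCK-TAg, against 1834.5 and 1773 in WT, so PEPCK-TAg replicate 1 lay below both WT arrays and replicate 2 above them. The change of 0.22 (interval from -0.27 to 0.71, limma adjusted p = 0.554) was -0.053 without PEPCK-TAg replicate 2.

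Acta2 encodes the smooth muscle actin that appears in stellate cells when they turn into myofibroblasts and is otherwise found in vessel walls. Its signal was 32.0 and 34.1 in PEPCK-TAg, against 11.1 and 10.2 in WT. The groups were apart and the arrays of each nearly equal, but all 4 signals were below the level of about 48.1 at which mean signals passed the filter, and detection calls are not used here. The difference was 0.96 on the log2(signal + 13) scale, and ranged from 0.44 with an offset of 52 to 1.43 with an offset of 2.6. Its size therefore depends on the offset, and no call is made.

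The 2 PEPCK-TAg arrays differed from each other over these genes. PEPCK-TAg replicate 2 was above replicate 1 in 12 of the 14 member probe sets, where 48.9% of all probe sets were, the exceptions being Fn1 and Col1a1 103709_at. Against the WT mean, the median difference of the 12 tested probe sets was 0.71 for PEPCK-TAg replicate 2 and 0.17 for PEPCK-TAg replicate 1 on the log2 scale. Between the WT arrays, replicate 2 was above replicate 1 in 5 of the 12, where 47.4% of tested probe sets were. No test compares 2 single arrays, and these counts describe the pair of PEPCK-TAg arrays at hand.

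Markers of endothelium and macrophages moved between the 2 PEPCK-TAg arrays as well. PEPCK-TAg replicate 2 was above replicate 1 in 8 of 9 tested endothelial genes and in 7 of 8 tested macrophage genes, where 49.4% of tested probe sets were. It was above in 2 of 8 hepatocyte genes, and in 6 of 11 tested genes of the wider stellate cell and myofibroblast list read below. The summed endothelial signal was 1937 and 2750 in PEPCK-TAg, against 2998 and 3063 in WT, with 0 genes called in either direction by limma. At an unadjusted p under 0.05, 0 endothelial genes were higher and 3 lower, where 15.5% and 11% of all tested probe sets were. The summed macrophage signal was 8272 and 10761 in PEPCK-TAg, against 2296 and 4279 in WT. The WT arrays thus differed in the same direction, with replicate 2 above replicate 1 in every macrophage gene but Mpeg1. Of the 8 macrophage genes 3 rose by limma, where 6.83% of all tested genes were called higher, and 0 fell, where 3.01% were called lower, with a median change of 1.08. The 3 were Mpeg1, Cd5l and Clec4f. Without a filter the limma adjusted p was 0.0732 for Cd5l and 0.0770 for Clec4f, and without a mean-variance trend 0.0588 and 0.0672. For Clec4f it was 0.101 without WT replicate 1 and 0.0713 without PEPCK-TAg replicate 2. No marker in these lists was listed at 0 on all arrays. The part of these cells in the collagen values was not tested.

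**Figure D3:**
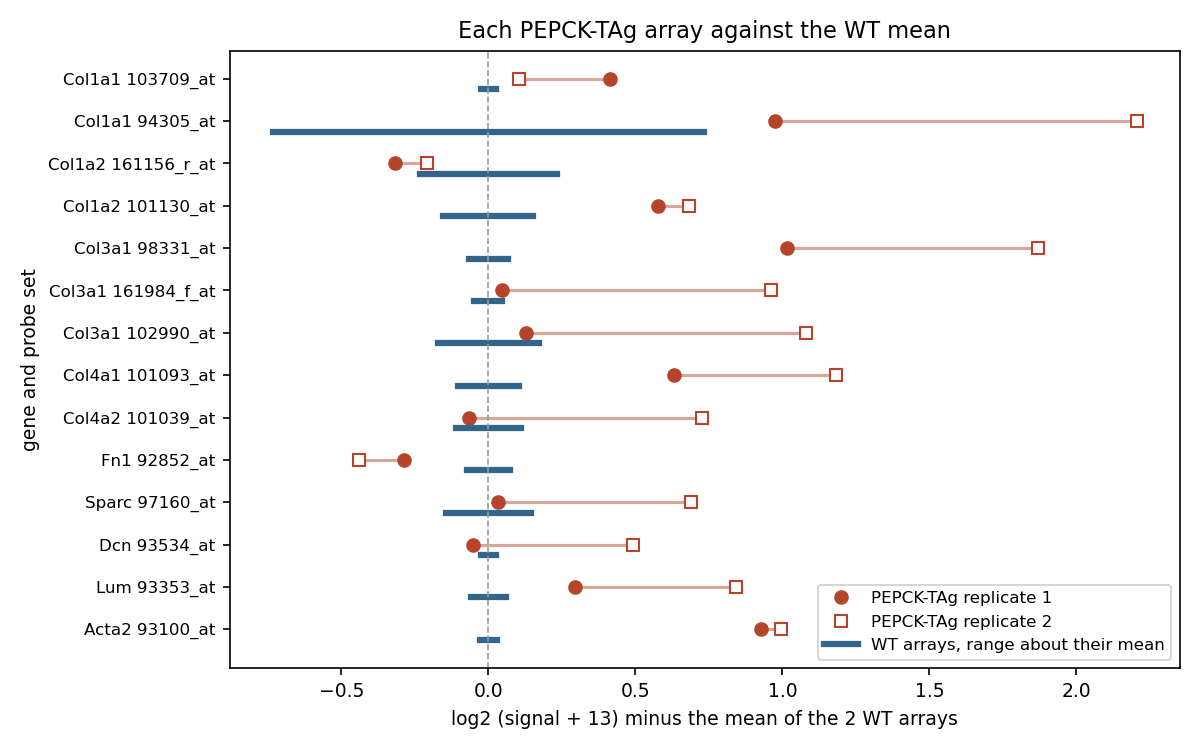
Each PEPCK-TAg array minus the mean of the 2 WT arrays on the log2(signal + 13) scale, for the 14 member probe sets, with filled circles for PEPCK-TAg replicate 1 and open squares for PEPCK-TAg replicate 2. Blue bars give the range of the 2 WT arrays about their mean. PEPCK-TAg replicate 2 lies to the right of replicate 1 in 12 of 14 probe sets.

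The wider set of stellate cell and myofibroblast genes was read next, with each gene represented by its probe set of highest mean. Of 20 such genes on the array 11 were tested, 4 rose and 0 fell, with a median change of 0.29. Of all tested genes 6.83% were called higher and 3.01% lower. Vcam1, an adhesion molecule of activated stellate cells and of inflamed endothelium, had 503.5 and 685.9 in PEPCK-TAg, against 72.8 and 84.8 in WT, a change of 2.71 (limma, adjusted p = 0.00178). The LIM protein gene Csrp1 had 349.3 and 328.6 in PEPCK-TAg, against 82.1 and 95.9 in WT (change 1.79, limma adjusted p = 0.00288). Its relative Csrp2, known from stellate cells and smooth muscle, had 786 and 830.4 in PEPCK-TAg, against 198.3 and 392.7 in WT (change 1.49, limma adjusted p = 0.0298). All 3 genes had both PEPCK-TAg arrays above both WT arrays.

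The tropomyosin gene Tpm1, whose product stabilises actin filaments in many cells, had 595.8 and 690.9 in PEPCK-TAg, against 227.6 and 313.7 in WT (change 1.22, limma adjusted p = 0.0169). Tpm2 (0.62, limma adjusted p = 0.124) and the smooth muscle gene Tagln (0.29, limma adjusted p = 0.435) did not pass. The other Tpm2 probe set, below the filter, went the other way, with 8.1 and 15 in PEPCK-TAg, against 17.5 and 34.6 in WT. Vim (-0.31), Pdgfra (0.23), Gfap (0.12) and Actg2 (-0.07) did not pass either, each with overlapping groups. Csrp2 had an adjusted p of 0.0686 without a filter and 0.055 without a mean-variance trend, and Tpm1 one of 0.0536 without WT replicate 1. The other 9 genes of this list were below the filter and were not tested. In 4 of them both PEPCK-TAg arrays were above both WT arrays, in 3 both were below, and in 2 the groups overlapped. Over all probe sets of the array, 26.5% had both above and 23.5% had both below. The intermediate filament gene Des had 22.3 and 30.1 in PEPCK-TAg, against 16 and 7.9 in WT, and the receptor gene Pdgfrb had 29.5 and 34.7 in PEPCK-TAg, against 17.6 and 26 in WT. The smooth muscle myosin light chain gene Myl9 had 27.1 and 36.9 in PEPCK-TAg, against 43.7 and 37.9 in WT, and the heavy chain gene Myh11 had 15.9 and 22.2 in PEPCK-TAg, against 21.3 and 17.5 in WT. Reln, a marker of resting stellate cells, had 299.6 and 666.1 in PEPCK-TAg, against 550.5 and 582.7 in WT, so the 2 PEPCK-TAg arrays lay on either side of WT (change -0.33, limma adjusted p = 0.607).

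None of the other collagens passed the limma threshold. Of 24 on the array 13 were tested, with a median change of -0.03. At an unadjusted p under 0.05 by limma 1 was higher and 1 lower, where 15.5% and 11% of all tested probe sets were. The one that was higher, Col5a2, encodes a chain of type V collagen, which starts and limits the width of collagen fibrils, and is the next gene to Col3a1 on the chromosome. Col5a2 had 79.5 and 104.6 in PEPCK-TAg, against 30 and 45 in WT, so the groups were apart. Its change was 1.06 (interval from 0.36 to 1.77, limma adjusted p = 0.0737), and it passed the filter only through the PEPCK-TAg arrays. Col13a1, a membrane-bound collagen, was the one that was lower, with 74 and 79.4 in PEPCK-TAg, against 124.9 and 112.3 in WT (change -0.55, limma adjusted p = 0.155).

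Genes that process and export collagen gave 0 calls by limma among 11 tested, with a median change of -0.10. At an unadjusted p under 0.05, 0 were higher and 1 lower, beside 15.5% and 11% of all tested probe sets. The one that was lower was Mia3, whose product loads collagen into transport carriers, with 292.1 and 381.6 in PEPCK-TAg, against 553.5 and 605.6 in WT (change -0.77, limma adjusted p = 0.0532). Mia3 was called lower with quantile normalization, median centring, the filter at the 60th percentile and the replicate block. It was not called with no filter, cyclic loess, another offset or no mean-variance trend. Against the WT mean, its change was -0.96 for PEPCK-TAg replicate 1 and -0.59 for PEPCK-TAg replicate 2. The transglutaminase gene Tgm2, whose product cross-links matrix proteins, changed by 0.41 (limma, adjusted p = 0.288).

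Among 10 tested proteoglycan and matrix glycoprotein genes 1 rose and 0 fell, with a median change of 0.18. Of all tested genes 6.83% were called higher and 3.01% lower. Eln, which encodes elastin, the protein of elastic fibres, had 346.9 and 580.3 in PEPCK-TAg, against 119.1 and 69.4 in WT, a change of 2.15 ± 0.32 (SE; limma, adjusted p = 0.0115). Both PEPCK-TAg arrays were well above both WT arrays, and Eln was called under all 13 alternatives. Its other probe set was below the filter, with signals of 2.9 and 2.1 in PEPCK-TAg and 11.2 and 2.4 in WT. Smoc2, a secreted relative of Sparc, had 158 and 138.5 in PEPCK-TAg, against 88.5 and 31.2 in WT (change 1.26, limma adjusted p = 0.0993). Vtn, the hepatocyte-made plasma protein vitronectin, changed by -0.33 (limma, adjusted p = 0.199).

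Laminins and other basement membrane genes gave 0 calls by limma among 7 tested. At an unadjusted p under 0.05, 1 was higher (Lama5, change 1.03) and 1 lower (Lama3, change -1.08). The shares over all tested probe sets were 15.5% and 11%. Lama5 passed the filter only through the PEPCK-TAg arrays and Lama3 only through the WT arrays. The other Lama5 probe set, below the filter, went the other way, with 24.3 and 27 in PEPCK-TAg, against 44.1 and 44.3 in WT. Ligands, receptors and mediators of TGF-beta and PDGF, the signals best known for driving stellate cells to make collagen, gave 0 calls among 12 tested. Their median change was -0.22. At an unadjusted p under 0.05, 1 gene was higher and 1 lower, beside the same 15.5% and 11% of all tested probe sets. The one that was higher was Tgif1, a repressor of TGF-beta signalling, with 416.1 and 386.1 in PEPCK-TAg, against 259 and 240.2 in WT (change 0.66, limma adjusted p = 0.0555). The one that was lower was Eng, a co-receptor of endothelium, with 1006 and 1470 in PEPCK-TAg, against 1837 and 1715 in WT (change -0.54, limma adjusted p = 0.157).

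Among 11 tested integrins and other matrix receptors 0 passed, with 3 higher and 1 lower at an unadjusted p under 0.05 by limma. Of all tested probe sets 15.5% were higher and 11% lower at that level. Ddr1, a receptor kinase that binds collagen, had 89.9 and 109.1 in PEPCK-TAg, against 11.8 and 42.8 in WT (change 1.59, limma adjusted p = 0.0671). Ddr1 passed the filter only through the PEPCK-TAg arrays. The integrin chain gene Itgav had 1575 and 1557 in PEPCK-TAg, against 1087 and 1068 in WT (change 0.53, limma adjusted p = 0.0657), while its 2 other probe sets did not show it.

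Of 10 tested genes of matrix breakdown 2 rose and 0 fell, where 6.83% and 3.01% of all tested genes did. Mmp13, the main interstitial collagenase of mice, had 345.6 and 333.4 in PEPCK-TAg, against 7.2 and 18.7 in WT. Mmp12, an elastase of macrophages, had 352.9 and 388 in PEPCK-TAg, against 34.5 and 22.3 in WT, with changes of 3.80 and 3.23 (limma, adjusted p = 0.00168 and 0.00139). Timp1, the inhibitor that activated stellate cells secrete, had 445.5 and 310.8 in PEPCK-TAg, against 512.2 and 319.1 in WT, with overlapping groups (change -0.12, limma adjusted p = 0.836). Reck, a membrane-bound inhibitor of these proteases, changed by -0.88 (limma, adjusted p = 0.112).

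Over all 8 lists, 85 genes were tested, of which 7 rose and 0 fell, with a median change of 0.10. That is 8.24% called higher, near the 6.83% of all tested genes, and says nothing particular of these lists. The 7 were Vcam1, Csrp1, Csrp2, Tpm1, Eln, Mmp12 and Mmp13, and no collagen was among them. Mmp12 and Mmp13 passed the filter only through the PEPCK-TAg arrays.

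**Figure D4:**
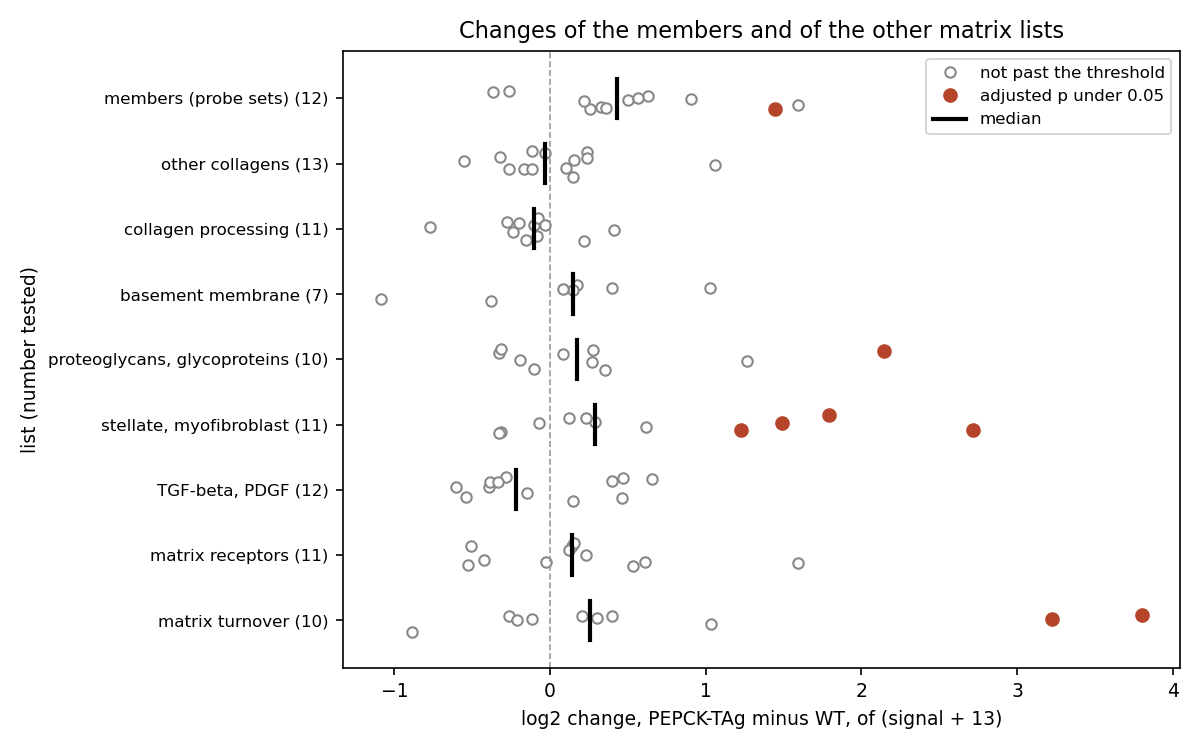
Change of each tested gene on the log2(signal + 13) scale, PEPCK-TAg minus WT, for 12 member probe sets and 8 lists of other matrix genes, with filled points for an adjusted p under 0.05 and a black bar for each median. The called genes are in the stellate, glycoprotein and turnover lists, at 1.22 to 3.80, beside 1 member probe set at 1.44.

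The genes whose pattern over the 4 arrays was most like that of the fibrillar collagens were Fzd3, Trim13, Limd1, Psg19 and Rasa3. Likeness was the distance between log2 values centred on each gene's mean and the mean centred values of the 7 probe sets of Col1a1, Col1a2 and Col3a1. The distances were 0.09, 0.10, 0.10, 0.13 and 0.14. With 4 arrays many of 5650 genes can lie this close.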

How the data were processed

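Total liver RNA was measured on Affymetrix MG_U74Av2 arrays, 2 for PEPCK-TAg and 2 for WT, grouped by the sample titles. Per the submitters' processing notes, the authors made the deposited signal intensity values with MAS5. They are linear, with 1 value for each probe set on each array. No source used here states the MAS5 version or scaling target. Trimmed means, without 2% at each end, were equal, so no further normalization was applied. Per the file headers the arrays shared chip lot, fluidics station and scan day, and each had its own fluidics module. No batch therefore held more than 1 array short of all 4.

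Of 12488 probe sets 66 controls were left out, and 10833 of the rest had 1 gene symbol, 396 several and 1193 none. Identifiers of all 10 members matched RefSeq (GRCm38.p6). The offset of 13 is 5% of the trimmed mean. The filter was the 40th percentile of mean log2 value. PEPCK-TAg was compared with WT by limma 3.58.1 in R 4.3.3 (eBayes with a mean-variance trend, 2 residual and 4.61 prior degrees of freedom), after a test on simulated data. An exact permutation test cannot go below 0.333 here. The number of arrays limits the precision. Members and lists were chosen with earlier results of these data known. Named were all members and, of each list, up to 6 called genes and up to 2 others of smallest p, with the 5 genes most like the fibrillar collagens. Des, Pdgfrb, Myl9, Myh11, Reln and Timp1 were added for their role, after values were seen. Vim, Pdgfra, Gfap and Actg2 were added, also after values were seen, as the rest of the tested genes of their list.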

Additional observations from a re-analysis of the deposited data

How the results depend on the processing

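Calls of single collagens depended on single arrays and on the filter. Col3a1 98331_at kept its call in 9 of 13 alternatives, and 4 alternatives called no member. The count of higher member probe sets, 1 as reported, ranged from 0 to 2 when each array was left out in turn, and was 0 with no filter, 2 with the filter at the 60th percentile and 2 with the replicate block, where Col4a1 was the other call. The count of lower members was 0 throughout. Of the 14 member probe sets 12 kept 1 direction in every setting, while leaving out arrays in turn gave -0.068 to 0.73 for Col4a2 and -0.053 to 0.49 for Dcn, both negative without PEPCK-TAg replicate 2. The median change of the 14 ranged from 0.21 to 0.78 when arrays were left out and from 0.34 to 0.57 under the other settings, among them the 12 past the filter, a setting chosen after seeing the data (0.43). In the other lists the 7 higher genes were 6 to 9 under all alternatives but the replicate block (12). The 0 lower genes were 1 with quantile normalization, median centring or the filter at the 60th percentile, 2 with the replicate block (Mia3 among them in each of these 4 settings), and 0 to 1 when arrays were left out. Over the whole array the lower count of 229 was 409 with median centring, 105 with no filter, 117 without a mean-variance trend and 444 with the replicate block, and 94 to 147 when arrays were left out. The higher count of 477 was 294 to 401 when arrays were left out, and 696 with the replicate block. Same-numbered arrays shared only a number, with a correlation of 0.18 between their deviations over 1 pair of groups. Causes were not tested. Acta2 and 102990_at were below the filter, and the size of the Acta2 difference depended on the offset.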

Other observations

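Some matrix genes below the filter had groups that did not overlap. They were chosen after their values were seen and were not tested. Nid1, which encodes the basement membrane linker nidogen, had 43.9 and 81.2 in PEPCK-TAg, against 26.8 and 26.8 in WT. Plaur, the receptor of urokinase and a gene of macrophages and neutrophils, had 44.3 and 44.7 in PEPCK-TAg, against 11.6 and 10 in WT. Adamts1, a protease that cuts proteoglycans, had 5.5 and 9.2 in PEPCK-TAg, against 0.9 and 2.4 in WT. In contrast the stellate cell transcription factor gene Hand2 had 9.7 and 14.3 in PEPCK-TAg, against 26 and 22.1 in WT. In all probe sets of the array, dim ones included, 26.5% had both PEPCK-TAg arrays above both WT arrays and 23.5% had both below.

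Of 4 bile duct markers 1, Cd24a, was tested and was not called. Cd24a, a surface protein also made by other cells, had 109.7 and 130.2 in PEPCK-TAg, against 85.4 and 77.5 in WT (change 0.49, limma adjusted p = 0.202). Krt19, a keratin of bile duct cells and below the filter, had 2.8 and 2.9 in PEPCK-TAg, against 5 and 2.9 in WT. Of 3 tested genes of portal fibroblasts and mesothelium 1, Eln, rose, where 6.83% of all tested genes were called higher. The portal fibroblast marker Thy1 was below the filter, with 13.1 and 11.4 in PEPCK-TAg, against 9.3 and 5.8 in WT. Their part in the Eln and Col3a1 values was not tested.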
